A study of Homo sapiens with 10 samples.

Results

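MYB, RUNX, LEF/TCF and SOX4 proteins are DNA-binding transcription factors of early blood cells. The genes of these families followed here were chosen by their symbols in the deposited expression table and are MYB, MYBL1, MYBL2, RUNX1, RUNX2, RUNX3, CBFB, LEF1, TCF7 and SOX4. These are 10 of the 27142 genes in the table. All 10 symbols were found, and each had 1 row.

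The cells were the parental 697 line, an established human pre-B leukaemia line grown in RPMI1640 with 10% fetal bovine serum. RNA was sequenced from untreated cells (control, n = 2 libraries) and from cells given 12-O-tetradecanoylphorbol-13-acetate (TPA, n = 2 libraries) at 0.5 µg/ml. TPA is a phorbol ester that activates protein kinase C, and the labels state its duration only as a range of 0 to 24 h. Another 6 samples of the series, for CTCF, linker histone H1 and input DNA, were not analysed here. 697 is 1 line derived from 1 leukaemia, so the values describe this line only.

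MYB and its relatives MYBL1 and MYBL2 share a DNA-binding domain. MYB sustains immature blood cells, and MYBL2 works with the MuvB complex at genes for cell division. RUNX proteins bind DNA as a heterodimer with CBFB, which itself does not contact DNA. RUNX1 is needed for early B cell development, RUNX2 is best known from bone and RUNX3 from T cells and later B cells. LEF1 and TCF7 recruit beta-catenin to WNT target genes and otherwise bind repressors of the TLE family. LEF1 is expressed in pro-B and pre-B cells, among others, and TCF7 is best known from T cell precursors. SOX4 is a high mobility group factor required for the growth of pro-B cells.

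Expression was given in RPKM, in which reads are scaled to the length of the gene and the size of the library. Differences were tested with limma on log2(RPKM + 1), and a log2 value below is a difference of the TPA mean minus the control mean on that scale. Adjusted p-values are Benjamini-Hochberg values over 12159 genes, those that reached 1 RPKM in 2 or more libraries. A gene is said to have risen or fallen where the adjusted p was under 0.05. No label says that the libraries came from separate cultures, so the tests measure the spread between the 4 libraries alone, and that spread may be technical. In bulk RNA, fewer cells of a type and less RNA per cell cannot be told apart.

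The summed RPKM of a library lay between 349438 and 388846, and the relative depth, read from the steps between low values, at 91.3% of control replicate 1 or higher. The number of reads was not given, so no counting error is attached to any value. The 9 pre-B cell markers reported here were all expressed in the control libraries, among them CD79A, VPREB1 and DNTT. Their summed RPKM was 2175 and 2182 in the controls and 1072 and 1256 with TPA, and 7 of the 9 fell and 2 rose. The 2 rises were CD79A and CD79B. CD79A alone held 823 and 893 RPKM of the sums with TPA, against 218 and 199 RPKM in the controls.

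Of the 10 factor genes, 9 passed the filter on low values. With TPA 3 of them rose (SOX4, RUNX2 and TCF7), 5 fell (MYB, MYBL1, MYBL2, RUNX1 and LEF1) and CBFB did not pass the test. Over all genes tested 28.4% rose, 29.8% fell and 58.2% changed in either direction. Every count of a gene list below stands beside these shares, and no list was tested as a set. MYBL1, RUNX2 and TCF7 reached 1 RPKM in 1 group only, so they had to differ to be tested, and the 8 calls are not evidence that these families changed more often than other genes. The same holds for some of the partner, target and marker genes named below. CBFA2T3, PYGO1, FZD5, WNT3, WNT10B, WLS, SOX1, CSF1R and CD28 reached 1 RPKM in 1 group only. The median log2 fold change of the 9 was -1.10, beside -0.02 over all genes tested. The control and TPA values overlapped in none of the 9, and groups without overlap were found in 79.8% of all genes tested.

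**Figure D1:**
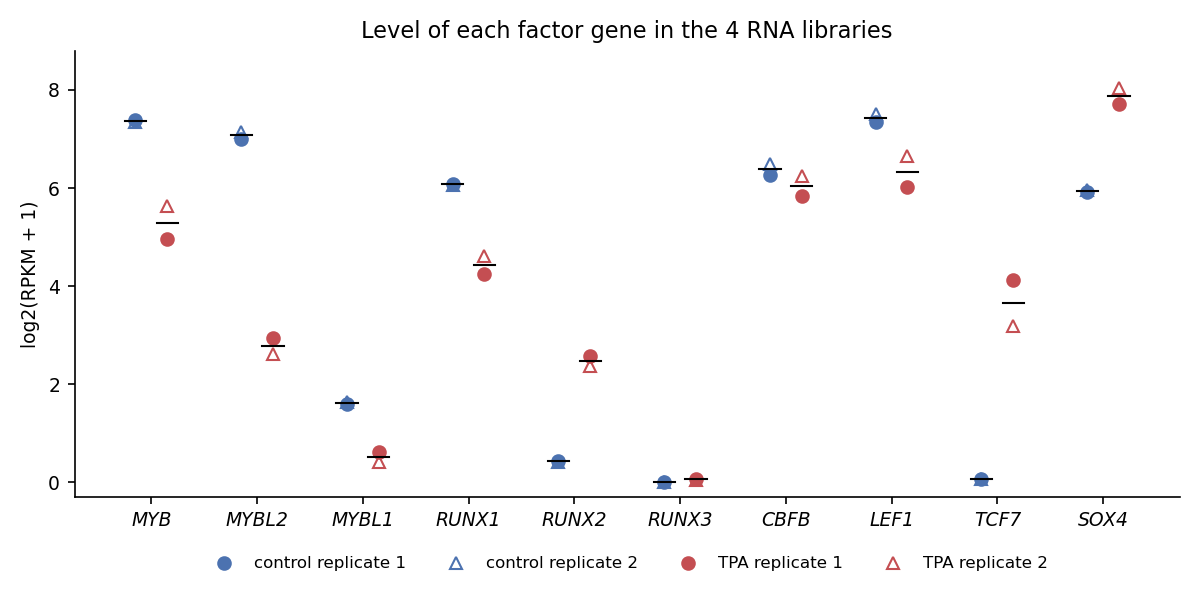
Level of each factor gene as log2(RPKM + 1) on the vertical axis in 2 control libraries (blue) and 2 TPA libraries (red), with circles for replicate 1, triangles for replicate 2 and a short line at the mean of each pair. MYB, MYBL2, RUNX1 and LEF1 sit lower with TPA, SOX4, RUNX2 and TCF7 sit higher, and RUNX3 stays near 0.

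In control cells the most abundant of the 10 transcripts per length were LEF1 and MYB, whose RPKM ranges overlapped. They were followed by MYBL2, CBFB, RUNX1 and SOX4, whose ranges did not overlap with their neighbours in this order. LEF1 ranked 304 and SOX4 1140 among the 12159 genes tested, and MYBL1, RUNX2, TCF7 and RUNX3 ranked at 10313 or below. With TPA the order opened with SOX4, at rank 174, followed by LEF1 and CBFB, whose ranges overlapped, and then MYB. MYBL2 dropped from rank 408 to rank 7900.

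MYB, at 6q23.3, stood at 166 and 162 RPKM in the control libraries and at 29.9 and 48.5 RPKM with TPA. Both TPA libraries lay below both controls, and TPA replicate 1 was the lower of the treated pair. The group means were 164 ± 2.79 and 39.2 ± 13.1 RPKM (SD, n = 2), a 4.18-fold lower level. On the log2 scale MYB fell by 2.08 (SE 0.214, adjusted p = 9.31e-05).

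MYBL2, at 20q13.12 and known as B-MYB, is transcribed in dividing cells through E2F sites. It had 128 and 140 RPKM in the controls and 6.73 and 5.11 RPKM with TPA. The fall was the largest of the 10 genes. The mean went from 134 ± 9.08 to 5.92 ± 1.15 RPKM (SD, n = 2), which is 22.6-fold lower, and the log2 difference was -4.29 (SE 0.157, adjusted p = 5.77e-07). Only 0.592% of genes tested had a larger change in either direction.

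MYBL1, also known as A-MYB, is typical of germ cells and germinal centre B cells. It was low throughout, with 2.04 and 2.10 RPKM in the controls and 0.523 and 0.332 RPKM with TPA. On the log2 scale it fell by 1.11 (SE 0.134, adjusted p = 2.24e-04). Because its levels are close to the added pseudocount of 1 RPKM, the size depends on that choice, and with 0.1 in its place the value was -2.06.

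The 250 bases before the RefSeq start of MYB and MYBL2 (GRCh38.p14, both on the plus strand) are shown because the pair shares 1 motif there, the E2F element GGCGGGA, given in capitals. It lies 58 bases before the start in MYB (chr6:135181058-135181307) and 39 bases before it in MYBL2 (chr20:43666864-43667113).
MYB: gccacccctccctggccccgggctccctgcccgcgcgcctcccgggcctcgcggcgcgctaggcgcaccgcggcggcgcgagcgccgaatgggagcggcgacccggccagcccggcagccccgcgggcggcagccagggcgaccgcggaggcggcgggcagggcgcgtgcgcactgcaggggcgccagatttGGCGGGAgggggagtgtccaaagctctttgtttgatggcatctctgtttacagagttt
MYBL2: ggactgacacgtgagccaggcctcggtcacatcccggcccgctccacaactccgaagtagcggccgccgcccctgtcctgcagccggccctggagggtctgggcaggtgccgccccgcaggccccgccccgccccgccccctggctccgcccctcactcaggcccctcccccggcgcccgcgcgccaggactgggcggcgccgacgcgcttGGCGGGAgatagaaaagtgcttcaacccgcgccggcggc
On both strands, 13.5% of all 35116 promoter windows of this length in the RefSeq table hold these letters, and 2 of the 11 windows of the factor genes do. The letters were chosen after the windows had been read. A match describes the sequence and is no evidence of binding.

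Within the family, per-length shares moved from MYBL2 to MYB. MYBL2 made up 43.2% and 46.1% of the summed RPKM of the 3 genes in the controls, and 18.1% and 9.47% with TPA. MYB made up 56.2% and 53.2% in the controls, and 80.5% and 89.9% with TPA. The summed level itself went from a mean of 300 RPKM to 45.6 RPKM, so MYB took a larger share of a smaller total.

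**Figure D2:**
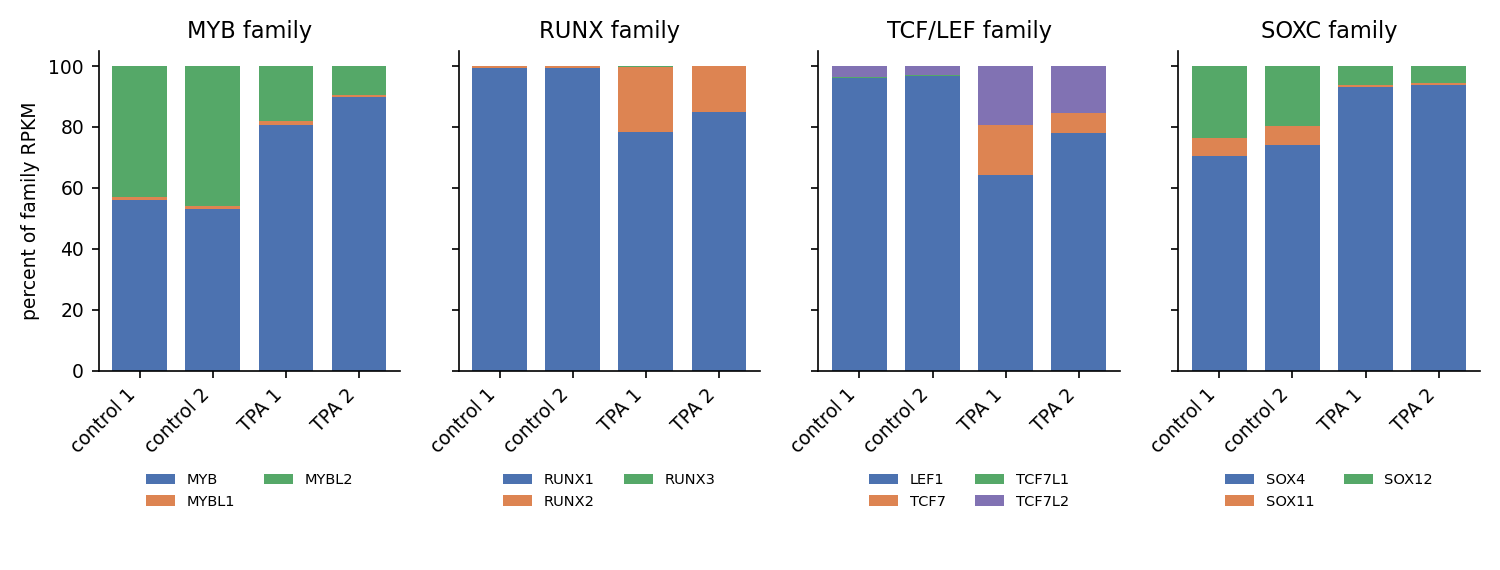
Share of each gene in the summed RPKM of its family, in percent on the vertical axis, with 1 bar for each of the 4 libraries. MYBL2 shrank from 43.2% and 46.1% to 18.1% and 9.47%, RUNX2 grew from 0.509% and 0.510% to 21.5% and 14.95%, and LEF1 shrank from 96.2% and 96.8% to 64.1% and 78.1%.

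The MuvB and DREAM complexes pair with MYBL2 or with E2F4 and the p130 and p107 proteins at cell-cycle promoters. Of 12 subunit genes, all tested, 9 fell, 2 rose and 1 did not pass, with a median log2 fold change of -0.78. FOXM1, which follows MYBL2 on MuvB, went from 41.8 and 44.9 RPKM to 3.21 and 3.21 RPKM (log2 -3.40, adjusted p = 6.61e-07). RBL1, which encodes p107, went from 10.8 and 12.3 to 1.73 and 1.94 RPKM (log2 -2.14, adjusted p = 6.73e-06). Both fell in each TPA library. TFDP2, a dimer partner of E2F proteins, rose from 10.7 and 10.2 to 23.8 and 26.2 RPKM (log2 1.19, adjusted p = 1.42e-04). LIN37 had a log2 fold change of 0.37 (adjusted p = 0.0377), and the 2 rises became 1 when any 1 library was left out.

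Genes of mitosis known to be bound by MuvB with MYBL2 fell in all 14 of the 14 cases listed and tested, with a median log2 fold change of -2.30. Over all genes tested 29.8% fell. The list was chosen with earlier results of these data known, and binding of MYBL2 or MuvB was not measured here. TOP2A, the DNA topoisomerase of dividing cells, went from 131 and 144 RPKM to 17.8 and 17.2 RPKM (log2 -2.90, adjusted p = 1.49e-06). CCNA2, the cyclin of S phase and G2, went from 53.7 and 64.1 RPKM to 5.29 and 6.14 RPKM (log2 -3.16, adjusted p = 1.69e-06). The changes of the 14 genes ran from -3.36 for CDK1 to -1.33 for CDC20.

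Genes for partners and regulators of the MYB protein were listed next. Of 11 such genes, all tested, 4 rose, 4 fell and 3 did not pass, with a median log2 fold change of 0.10. These shares are close to the 28.4% and 29.8% over all genes tested. The kinase NLK and the ubiquitin ligase subunit FBXW7 both promote breakdown of the MYB protein. NLK rose from 13.0 and 15.1 to 29.2 and 29.2 RPKM (log2 1.01, adjusted p = 4.27e-04), and FBXW7 fell from 59.8 and 62.3 to 14.8 and 18.3 RPKM (log2 -1.83, adjusted p = 2.42e-05). PSIP1, the chromatin tether of the MLL and menin complex that MYB contacts, fell from 53.8 and 59.7 to 12.2 and 15.9 RPKM (log2 -1.95, adjusted p = 2.82e-05). PIM1, a kinase, had 3.52 and 3.62 RPKM in the controls and 15.8 and 6.47 RPKM with TPA (log2 1.29, adjusted p = 0.00904), so its TPA libraries differed widely. The log2 fold change of PIM1 was 0.71 without TPA replicate 1 and 1.87 without TPA replicate 2. Without a filter on low values its adjusted p was 0.0891. The 4 rises became 2 without control replicate 1 and 2 without control replicate 2.

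Genes known as MYB targets were tested for 8 of 13, of which 5 fell, 2 rose and 1 did not pass (median -1.18). Among all genes tested, 29.8% fell and 28.4% rose. This list, too, was chosen with earlier results of these data known. IL7R, the interleukin-7 receptor, went from 135 and 150 RPKM to 12.2 and 23.7 RPKM (log2 -2.99, adjusted p = 3.93e-05). EBF1, a B-lineage factor, went from 36.7 and 38.4 to 9.06 and 13.1 RPKM (log2 -1.70, adjusted p = 1.01e-04). The adenosine deaminase gene ADA and the survival gene BCL2 fell by 1.70 and 1.27 on the log2 scale. MYC fell from 272 and 275 to 99.1 and 165 RPKM (log2 -1.09, adjusted p = 0.00391). GFI1, a repressor of blood cells, rose from 9.68 and 9.97 to 78.9 and 72.4 RPKM (log2 2.82, adjusted p = 1.60e-06), and GATA3 rose from 1.801 and 2.13 to 11.2 and 13.3 RPKM (log2 2.16, adjusted p = 8.77e-06).

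**Figure D3:**
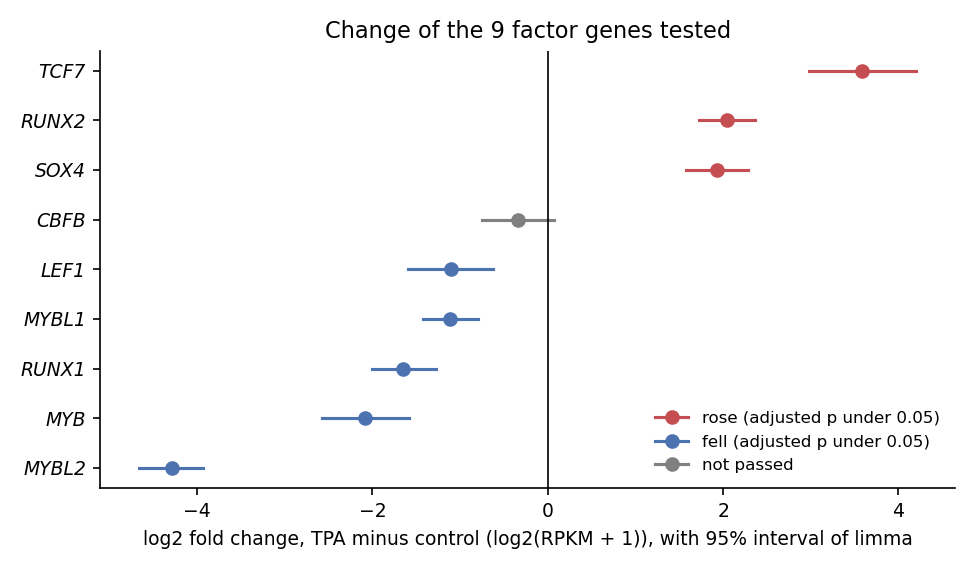
Log2 fold change (TPA minus control, on log2(RPKM + 1)) on the horizontal axis for the 9 factor genes tested, with bars for limma's 95% confidence interval and n = 2 libraries per group. Of the 9, only the interval of CBFB, from -0.75 to 0.07, crosses 0, and MYBL2 and TCF7 lie at the ends, at -4.29 and 3.59.

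RUNX1, at 21q22.12, had 66.8 and 66.2 RPKM in the controls and 18.0 and 23.5 RPKM with TPA. Both treated libraries lay far below both controls. The mean went from 66.5 ± 0.457 to 20.7 ± 3.90 RPKM (SD, n = 2), a 3.21-fold lower level, and RUNX1 fell by 1.65 on the log2 scale (SE 0.158, adjusted p = 6.22e-05).

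RUNX2, at 6p21.1, moved in the opposite direction. It had 0.342 and 0.339 RPKM in the controls and 4.94 and 4.13 RPKM with TPA, a 13.3-fold higher mean, and rose by 2.04 on the log2 scale (SE 0.135, adjusted p = 8.46e-06). With a pseudocount of 0.1 the log2 fold change was 3.39. SUPT3H, a gene annotated as overlapping RUNX2, had 1.28 and 1.39 RPKM in the controls and 2.53 and 3.03 RPKM with TPA (log2 0.69, adjusted p = 0.00282). Whether reads were counted by strand was not given in the sources used here.

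RUNX3, at 1p36.11, was listed at 0 in both controls and had 0.040 and 0.038 RPKM with TPA, below the filter, so it was not tested. CBFB, at 16q22.1, kept the level of an abundant gene, with 75.7 and 89.5 RPKM in the controls and 56.0 and 75.2 RPKM with TPA. The lower control lay just above the higher TPA library, and the log2 difference, -0.34 (SE 0.176, adjusted p = 0.135), did not pass the test. The value depended on single libraries. It was -0.13 without TPA replicate 1 (adjusted p = 0.56), -0.55 without TPA replicate 2 (adjusted p = 0.0193) and -0.22 without control replicate 2 (adjusted p = 0.526). The 95% interval of the full fit, from -0.75 to 0.07, includes no change and a fall of 0.75.

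The make-up of the RUNX family differed between the groups. RUNX1 made up 99.5% and 99.5% of the RUNX total in the controls, and 78.3% and 84.9% with TPA, while RUNX2 held 21.5% and 14.95% there. The summed level of the 3 RUNX genes went from a mean of 66.8 to 25.3 RPKM. The ratio of RUNX1 to CBFB was 0.882 and 0.739 in the controls and 0.321 and 0.312 with TPA, so relative to its partner RUNX1 was lower in both treated libraries.

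The distal promoter window of RUNX2 (GRCh38.p14, chr6:45328080-45328329, plus strand) is shown for the letters TGANTCA, where N is any base. It alone among the 11 factor windows holds them. They are a looser form of the TPA response element, which AP-1 factors bind, and here read TGAGTCA. Capitals mark that element, 243 bases before the start, and the RUNX motif TGTGGT read on the other strand as ACCACA, 191 and 87 bases before the start.
RUNX2: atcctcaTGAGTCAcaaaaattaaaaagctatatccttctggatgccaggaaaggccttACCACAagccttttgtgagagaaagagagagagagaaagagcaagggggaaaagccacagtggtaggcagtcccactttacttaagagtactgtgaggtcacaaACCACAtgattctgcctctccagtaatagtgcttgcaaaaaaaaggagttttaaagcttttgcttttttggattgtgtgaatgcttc
The letters TGANTCA, with any base at N, were found on either strand in 6.57% of all promoter windows, and the RUNX letters in 3855 of the 35116 windows. These matches are no evidence of binding. Which RUNX2 promoter was used cannot be read from the 1 value per gene given here.

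Proteins that bind RUNX factors were tested for 14 of 18 genes, of which 6 fell, 1 rose and 7 did not pass (median -0.20). CBFA2T3, a corepressor of the ETO family that passed the filter through the controls alone, fell from 5.95 and 5.90 to 0.697 and 0.822 RPKM (log2 -1.98, adjusted p = 7.44e-06). SUV39H1, a histone methyltransferase, fell from 14.9 and 16.2 to 2.42 and 3.03 RPKM (log2 -2.15, adjusted p = 8.13e-06). WWTR1, a coactivator, rose from 1.62 and 2.09 to 3.18 and 4.08 RPKM (log2 0.69, adjusted p = 0.00572). The rises numbered 2 without TPA replicate 1.

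Of 17 genes known as RUNX targets 6 passed the filter, with 4 rises, 1 fall and 1 gene short of the threshold (median 1.11). CSF1R, 1 of the 4 rises, reached 1 RPKM with TPA only. Among all genes tested, 28.4% rose and 29.8% fell. The list was chosen with earlier results of these data known. CD79A, a signalling chain of the B cell receptor, rose from 218 and 199 to 823 and 893 RPKM (log2 2.04, adjusted p = 9.36e-06). ZBTB7B, a zinc finger factor, rose from 1.83 and 2.18 to 8.05 and 7.82 RPKM (log2 1.57, adjusted p = 3.12e-05). CEBPA, a myeloid factor, fell from 4.41 and 5.15 to 1.57 and 2.23 RPKM (log2 -1.0, adjusted p = 9.17e-04). The B cell kinase BLK had 69.5 and 64.1 RPKM in the controls and 70.6 and 75.4 RPKM with TPA (log2 0.13, adjusted p = 0.442).

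LEF1, at 4q25, had 162 and 182 RPKM in the controls and 63.7 and 99.4 RPKM with TPA. Both treated libraries were below both controls, and they differed from each other by 0.63 on the log2 scale, against a median of 0.184 over genes tested. The mean went from 172 ± 14.5 to 81.5 ± 25.3 RPKM (SD, n = 2), a 2.11-fold lower level, and LEF1 fell by 1.10 on the log2 scale (SE 0.210, adjusted p = 0.00259). Its antisense gene LEF1-AS1 moved with it, from 47.3 and 48.4 RPKM to 18.3 and 26.9 RPKM (log2 -1.07, adjusted p = 0.0015). Since strand use is not given, reads from LEF1 and LEF1-AS1 cannot be told apart where they overlap.

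TCF7, at 5q31.1, was almost absent from the controls, at 0.052 and 0.046 RPKM, and had 16.4 and 8.15 RPKM with TPA. Both treated libraries were far above both controls, and TPA replicate 1 was the higher of the pair. TCF7 rose by 3.59 on the log2 scale (SE 0.265, adjusted p = 1.5e-05), and with a pseudocount of 0.1 it was 6.29. VDAC1, a mitochondrial channel gene annotated as overlapping TCF7, went the other way, from 152 and 173 RPKM to 67.6 and 81.2 RPKM (log2 -1.12, adjusted p = 4.09e-04).

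T cell markers were looked at beside TCF7. Of 9 such genes, CD3D, CD3E and TRAT1 were listed at 0 in all 4 libraries, and CD3G reached 0.017 RPKM in 1. The summed RPKM of the list was 4.35 and 4.48 in the controls and 16.1 and 19.4 with TPA. CD28 carried that rise, from 0.009 and 0.004 to 14.8 and 17.9 RPKM (log2 4.10, adjusted p = 4.64e-07), and BCL11B fell from 4.33 and 4.48 to 1.14 and 1.495 RPKM (log2 -1.23, adjusted p = 1.48e-04). CD28, the only rise on the list, fell below the filter without either TPA replicate, leaving 0.

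The promoter window of LEF1 (GRCh38.p14, chr4:108166302-108166551, minus strand) is shown because it holds motifs of other factors in this group. Capitals mark the MYB letters AACTG, 200 bases before the start, and the RUNX letters TGTGGT, 57 bases before it.
LEF1: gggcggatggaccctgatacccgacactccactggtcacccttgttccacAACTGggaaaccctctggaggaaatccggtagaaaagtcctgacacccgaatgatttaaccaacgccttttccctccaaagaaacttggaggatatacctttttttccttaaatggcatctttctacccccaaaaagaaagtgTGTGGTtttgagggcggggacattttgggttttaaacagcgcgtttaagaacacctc
The MYB letters are short and occur on either strand in 34.1% of all promoter windows. The letters of TCF/LEF (CTTTGA), of SOX (ACAATG) and of the cell-cycle homology region (TTTGAA) were in none of the 11 windows, and in 11.2%, 9.29% and 13.3% of all windows.

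Among the 4 TCF/LEF genes, LEF1 held 96.2% and 96.8% of the summed RPKM in the controls and 64.1% and 78.1% with TPA. TCF7L2, a further TCF gene, held 3.69% and 3.11% in the controls and 19.2% and 15.4% with TPA, and TCF7 held 16.5% and 6.40% with TPA. TCF7L2 rose from 6.21 and 5.85 to 19.1 and 19.6 RPKM (log2 1.54, adjusted p = 2.91e-05). TCF7L1 stayed at or below 0.147 RPKM. The sum of the family went from a mean of 178 to 113 RPKM, and LEF1 remained its most abundant gene in every library.

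Beta-catenin coactivators and TCF genes other than the members were tested for 7 of 8, and 4 rose, 1 fell and 2 did not pass (median 0.59). CTNNB1, which encodes beta-catenin, had 70.5 and 65.6 RPKM in the controls and 106 and 99.98 RPKM with TPA (log2 0.59, adjusted p = 0.00565). BCL9L, an adaptor of beta-catenin, rose from 2.76 and 2.36 to 6.66 and 7.16 RPKM (log2 1.15, adjusted p = 1.79e-04). PYGO1, which reads histone marks for the same complex, fell from 1.44 and 1.73 to 0.342 and 0.428 RPKM (log2 -0.90, adjusted p = 6.69e-04). Without control replicate 2 the 4 rises became 2, and CTNNB1 had an adjusted p of 0.0776. The fall was absent from the calls without either control replicate, where PYGO1 did not pass the filter, and 2 genes fell without TPA replicate 2.

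In the beta-catenin destruction complex 2 of the 6 genes tested (of 8 listed) rose, 0 fell and 4 missed the threshold (median 0.15). GSK3B, the kinase that marks beta-catenin for breakdown, rose from 9.35 and 8.70 to 17.8 and 17.5 RPKM (log2 0.90, adjusted p = 5.69e-04). BTRC, the ubiquitin ligase subunit that reads the mark, had a log2 fold change of 0.46 (adjusted p = 0.0154). Without either control replicate BTRC did not pass and 1 rise was left. AXIN2, a WNT feedback gene, had 0.777 and 0.664 RPKM in the controls and 0.268 and 0.249 RPKM with TPA and was below the filter.

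Of 15 WNT receptors and transducers 9 passed the filter, with 1 rise, 3 falls and 5 genes short of the threshold (median -0.11). The receptor FZD3 rose from 3.56 and 3.90 to 6.41 and 7.33 RPKM (log2 0.73, adjusted p = 0.00216). The receptor FZD5 fell from 1.32 and 1.52 to 0.384 and 0.316 RPKM (log2 -0.84, adjusted p = 8.10e-04), and the scaffold DVL1 had a log2 fold change of -0.51 (adjusted p = 0.00928). Without either control replicate the 3 falls became 0, with FZD5 then below the filter on low values, and 1 when the same genes were kept.

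WNT ligands and the proteins that secrete them were tested for only 5 of 21 genes, of which 3 rose and 2 fell (median 0.72). WLS, WNT10B and WNT3 reached 1 RPKM in 1 group only, so they had to differ to be tested. The median is the value of WNT10B, which had 0.306 and 0.352 RPKM in the controls and 1.197 and 1.184 RPKM with TPA. WNT16, a secreted ligand, fell from 71.6 and 102 to 9.81 and 8.49 RPKM (log2 -3.09, adjusted p = 5.09e-06). WNT3 fell from 5.07 and 4.91 to 0.591 and 0.661 RPKM (log2 -1.88, adjusted p = 9.05e-06). The secretion genes rose. WLS, the WNT carrier, went from 0.026 and 0 to 7.18 and 9.54 RPKM (log2 3.20, adjusted p = 1.89e-06), and PORCN, the WNT acyltransferase, from 1.68 and 1.61 to 4.48 and 5.50 RPKM (log2 1.18, adjusted p = 2.06e-04). The 3 rises became 1 without either TPA replicate and the 2 falls became 1 without either control replicate, through the filter on low values.

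Of 10 genes known as WNT targets 4 were tested, of which 2 rose, 0 fell and 2 did not pass, with changes from -0.27 to 2.11. Among all genes tested, 28.4% rose and 29.8% fell. The counts of the list depend on which genes were listed. The WNT feedback gene AXIN2, counted above with the destruction complex, is not among the 10. It was lower with TPA, at 0.268 and 0.249 against 0.777 and 0.664 RPKM, and below the filter. MYC, counted with the MYB targets, and LEF1 are not among the 10 either. Both fell, by 1.09 and 1.10 on the log2 scale. DKK1, a secreted WNT inhibitor, rose from 4.01 and 4.40 to 22.9 and 20.1 RPKM (log2 2.11, adjusted p = 7.64e-06). BAMBI, a decoy receptor of the TGF-beta family, rose from 14.5 and 18.2 to 67.1 and 61.0 RPKM (log2 1.91, adjusted p = 2.39e-05). LGR5 and SP5 were listed at 0 in all 4 libraries.

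**Figure D4:**
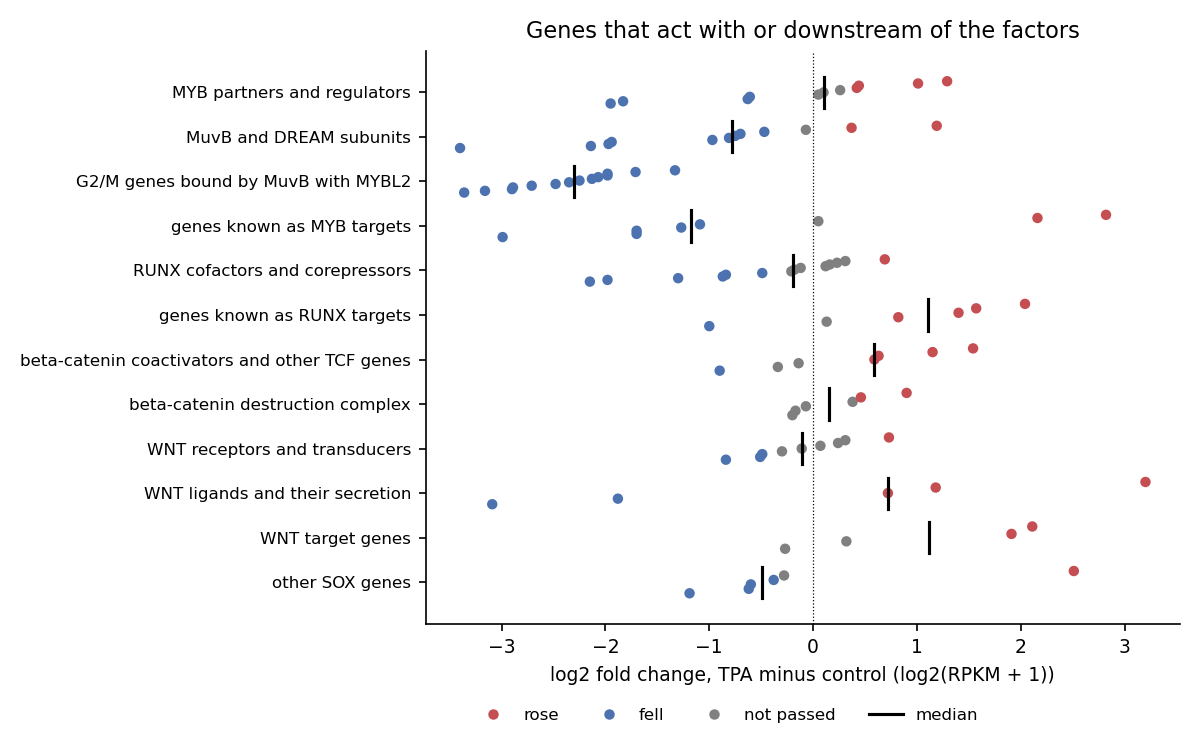
Log2 fold change (TPA minus control) on the horizontal axis of each tested gene in 12 lists of partners and targets of the factors, 1 point per gene, coloured by the limma call, with a black line at the list's median. All 14 mitotic genes known to be bound by MuvB lie left of 0, with a median of -2.30. The 11 MYB regulators spread on both sides of it, with a median of 0.10. The lists were chosen with earlier results of these data known.

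SOX4, at 6p22.3, had 59.4 and 61.3 RPKM in the controls and 208 and 261 RPKM with TPA. Both treated libraries were above both controls. The mean went from 60.3 ± 1.35 to 235 ± 37.7 RPKM (SD, n = 2), a 3.89-fold higher level, and SOX4 rose by 1.93 on the log2 scale (SE 0.153, adjusted p = 2.25e-05). SOX4 is a gene with a single exon, and no overlapping gene was annotated.

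The other genes of the SOXC group were not higher with TPA. SOX11 had 5.16 and 5.20 RPKM in the controls and 1.38 and 2.07 RPKM with TPA (log2 -1.19, adjusted p = 3.34e-04). SOX12 had 19.9 and 16.2 RPKM in the controls and 14.1 and 15.2 RPKM with TPA (log2 -0.28, adjusted p = 0.142). SOX4 made up 70.3% and 74.1% of the 3 genes in the controls, and 93.1% and 93.8% with TPA, while their sum went from a mean of 83.6 to 251 RPKM.

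Of 18 SOX genes other than SOX4, 6 passed the filter, with 1 rise, 4 falls and 1 gene short of the threshold (median -0.49). SOX13 rose from 2.11 and 2.77 to 16.1 and 21.1 RPKM (log2 2.51, adjusted p = 1.02e-05). SOX1, which passed the filter through the controls alone, had a log2 fold change of -0.60 (adjusted p = 0.0142). That call was lost without a filter on low values (adjusted p = 0.0599) and, with the same genes tested, without control replicate 2 (-0.41, adjusted p = 0.107) and without TPA replicate 1 (-0.50, adjusted p = 0.0566). The 4 falls became 2 without control replicate 1, 1 without control replicate 2 and 2 without TPA replicate 1.

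The replicate libraries of the treated group differed more for these genes than for most. The difference between the TPA libraries was 0.68 for MYB, 0.37 for RUNX1, 0.63 for LEF1, 0.93 for TCF7 and 0.33 for SOX4 on the log2 scale. It was 0.42 for CBFB, 0.34 for MYBL2, 0.21 for RUNX2 and 0.19 for MYBL1. None of the 9 tested members was at or under the median of 0.184, but MYBL1 and RUNX2 lay close to it. TPA replicate 2 had the higher level for MYB, RUNX1, CBFB, LEF1 and SOX4, and TPA replicate 1 for MYBL1, MYBL2, RUNX2 and TCF7. RUNX3, at 0.040 and 0.038 RPKM, was too low to compare. VPREB1 and DNTT, genes of the pre-B stage, were also higher in TPA replicate 2, at 20.2 against 7.12 RPKM and 37.4 against 14.6 RPKM. The summed RPKM over all genes was also higher in TPA replicate 2, at 388846 against 349438. Whether these differences share a source was not tested.

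The genes with profiles most like 4 of the factors over the 4 libraries were found among 8721 genes by the distance between centred log2(RPKM + 1) values. For MYB these were GAMT, PAQR4 and MPP1, at distances of 0.0705, 0.125 and 0.133. For RUNX1 they were ANKS1B, TEAD4 and SYNE3, at 0.0624, 0.0772 and 0.0809. For LEF1 they were MIR3917, ABHD17C and FCHSD2, at 0.0902, 0.0933 and 0.0994. MIR3917 is a microRNA gene, listed at 326 and 384 RPKM in the controls. Whether those reads belong to a longer overlapping transcript was not tested. For SOX4 they were RNFT1, CNN2 and UBXN11, at 0.0489, 0.0577 and 0.0644. These distances rest on 4 libraries in 2 groups, which all genes share.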

How the data were processed

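RNA-seq of 697 cells was available as 4 libraries, 2 control and 2 TPA, grouped and numbered by their titles. The authors deposited 1 table of RPKM values per gene and library, per the file headers, each row with a RefSeq accession, symbol and band. CASAVA 1.8, Bowtie 1.12, TopHat, SAMtools, HOMER and the build hg19 are named, per the submitters' processing notes, without role or order. Neither strand use nor read totals are given in the sources used here. RPKM values carry no read counts, so no count model was fitted. The other 6 samples (ChIP and input DNA) were not used here.

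Genes reaching 1 RPKM in 2 or more libraries were kept (12159 of 27142). Values on the log2(RPKM + 1) scale went into limma 3.58.1 under R 4.3.3 (empirical Bayes with a trend, 2 residual and 5.88 prior degrees of freedom), with two-sided p-values and Benjamini-Hochberg adjustment across the tested genes. The fit was tried on simulated data in which far fewer genes changed than were called here, all of them well above the filter. That trial does not cover genes near the filter. Tables and figures were made with pandas 2.3.3 and matplotlib 3.10.9. Relative depth came from the steps between values of 0.03 to 0.15 RPKM, searched only near the depth of control replicate 1. Sequences are from RefSeq tables on GRCh38.p14; 8 of the 10 genes had a promoter entry. Overlaps between genes were taken by name from the RefSeq gene table.

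The genes and lists were chosen with earlier results of these data known. Beside the 10 genes and their relatives TCF7L1, TCF7L2, SOX11 and SOX12, the text names, for each list and direction, up to 2 called genes (by smallest p), the 3 nearest profiles of MYB, RUNX1, LEF1 and SOX4 (mean of at least 5 RPKM) and overlapping genes. A further marker gene is not reported here. Other genes named were chosen after their values were seen. Alternatives were quantile normalization, median-of-ratios scaling, a 5 RPKM filter or none, pseudocounts of 0.5 and 0.1, no trend, a replicate block, leaving out each library, and, chosen after seeing the data, each library left out with the same genes tested.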

Additional observations from a re-analysis of the deposited data

How the results depend on the processing

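Over 136 alternative fits of the 9 tested factor genes, 133 kept the direction and the side of the threshold and 3 brought CBFB past it, all with a lower level with TPA. No factor gene changed direction. The number of factor genes that rose ranged from 1 to 3 over the fits without 1 library, because RUNX2 and TCF7 fell below the filter when either TPA library was left out. With the same genes tested it was 3 in each. Without a filter 4 rose, RUNX3 among them at 0.040 RPKM or less, which is too little to read. At a filter of 5 RPKM 2 rose and 4 fell, since MYBL1 and RUNX2 were not tested. Over all genes, 3621 fell in the full fit. In the fits without 1 library the falls ranged from 2412 (without control replicate 2) to 3911 (without TPA replicate 2), and with median-of-ratios scaling there were 4028. Calls that rose made up 48.8% of all calls in the full fit and 39.1% without TPA replicate 2. There the median of all genes shifted to -0.13. With the replicate block 3946 genes rose and 4288 fell, and 3 and 6 of the factor genes. Same-numbered libraries deviated together with a correlation of 0.361 over 12159 genes, but 2 pairs do not establish pairing. The block changed no call of a factor gene other than CBFB, which had -0.34 with an adjusted p of 0.0112 there. LEF1 ranged from -0.78 without TPA replicate 1 to -1.42 without TPA replicate 2. Depth in reads is unknown, so how much counting error adds to MYBL1, RUNX2 and RUNX3 could not be measured.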

Other observations

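The 9 myeloid markers summed to 0.667 and 1.01 RPKM in the controls and 3.17 and 3.96 RPKM with TPA, and FCGR3A, S100A8 and S100A9 were listed at 0 in all 4 libraries. CSF1R, the receptor of macrophage growth factor and also on the list of RUNX targets, made up most of the sum, with 0.548 and 0.706 RPKM in the controls and 2.93 and 3.66 RPKM with TPA (limma, log2 1.40, adjusted p = 9.22e-05). It was below the filter on low values when either TPA library was left out. The 8 erythroid and megakaryocyte markers summed to 1.39 and 1.497 RPKM in the controls and 1.38 and 1.097 RPKM with TPA, and HBB and PF4 were listed at 0 throughout.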
